A study of Mus musculus with 2 samples.

Results

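The genes described here are 10 selenoprotein genes of the mouse, Gpx1, Gpx3, Gpx4, Selenow, Selenop, Selenom, Selenof, Selenok, Selenoh and Txnrd2, chosen by symbol from the 32285 genes counted, and 14 further selenoprotein genes make up the 24 known in the mouse. Their transcripts were counted by scRNA-Seq in GL261, a glioma cell line from C57BL/6 mice that the labels call an astrocytoma. The adherent culture grew in DMEM supplemented with FBS (10%) and penicillin-streptomycin (1%). In the neurosphere culture, the same medium also held 20 ng/ml of EGF, 20 ng/ml of FGF and the supplement B-27 at 1:50, and spheres were collected after 12 days. By the labels, both cultures were treated with trypsin, and the spheres were in addition broken up by trituration, so dissociation differed too. For collection, the study's Methods name trypsin for the adherent cells only. Both cultures were frozen in medium with 10% DMSO, and each was sequenced as 1 library. Sphere growth, the growth factors, B-27, the time in culture and the dissociation differ together between the libraries, so their parts in any difference cannot be told apart.

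Selenoproteins carry selenocysteine, an amino acid with selenium in place of the sulfur of cysteine, most often at the active site of an enzyme that handles peroxides or thiols. The codon for it is UGA, which is otherwise a stop codon, and a hairpin in the untranslated end of the mRNA (the SECIS element) directs the ribosome to read through it. When selenium is scarce, the mRNAs of some selenoproteins, Gpx1, Selenow and Selenoh among them, are known to be degraded, while others such as Gpx4 and Txnrd1 are largely kept. B-27 contains selenium as selenite and serum contains it bound to protein, but the selenium in these media was not measured.

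The selenocysteine codons are shown because they define these genes. In the GENCODE M21 annotation of GRCm38 (mm10), all 24 genes carry at least 1 such codon and 34 in all, and of the 10 genes, 9 carry 1 and Selenop carries 10. Each line gives the sense strand, 5′ to 3′ and in frame, with the selenocysteine codon in capitals and up to 12 bases on both sides, cut at the stop codon. Codon numbers refer to the transcript with the most selenocysteine codons and, after that, the longest coding sequence. The 3 glutathione peroxidases have a glycine codon (GGC or GGT) next to the TGA:
Gpx1: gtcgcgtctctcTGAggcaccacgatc
Gpx3: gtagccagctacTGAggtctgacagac
Gpx4: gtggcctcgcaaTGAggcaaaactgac
In Gpx1 the codon lies at chr9:108339451-108339453 in exon 1 of 2, codon 47 of 201. In Gpx3 it lies at chr11:54907256-54907258 in exon 2 of 5, codon 73 of 226. In Gpx4 it lies at chr10:80054737-80054739 in exon 3 of 7, codon 129 of 253.

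In the small thioredoxin-like selenoproteins, a cysteine codon (TGC or TGT, in frame) precedes the TGA:
Selenow: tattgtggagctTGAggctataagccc
Selenom: acctgtggaggaTGAcagttgaatcgc
Selenof: gaagtctgcggaTGAaaattggggagg
Selenoh: cattgtacgagcTGAcgcgtgtacggc
The cysteine codon stood 3 codons before the TGA in Selenow (chr7:15920464-15920466, minus strand, codon 13 of 88), Selenom (chr11:3516273-3516275, codon 48 of 145) and Selenoh (chr2:84670381-84670383, minus strand, codon 38 of 123). It stood 2 codons before the TGA in Selenof (chr3:144590645-144590647, codon 93 of 162). Such a codon was found among the 4 codons before the TGA for 6 of the 19 selenocysteine codons of the 10 genes and for 14 of the 34 in all.

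In Txnrd2 and Selenok the codon is almost the last of the reading frame, and in Selenop most of the codons lie near the end:
Txnrd2: gtgactggttgcTGAggctaa
Selenok: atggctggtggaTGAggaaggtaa
Selenop, the first codon: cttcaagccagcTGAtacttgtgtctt
Selenop, the last codon: aggaagtgaaaaTGAcattcaaactaa
The TGA was codon 526 of 527 in Txnrd2 (chr16:18477772-18477774) and codon 92 of 94 in Selenok (chr14:29973440-29973442). The first TGA of Selenop was codon 59 of 380 (chr15:3274848-3274850, exon 2), and the other 9 lay in exon 5, from codon 259 to codon 377 (chr15:3279696-3279698).

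The kept cells were 5051 adherent and 4276 neurosphere cells, with a median of 8260 and 13198.5 UMIs per cell. CPM is the number of UMIs of a gene, added up across all kept cells of the culture, in every 1000000 UMIs left after mitochondrial and ribosomal genes were removed. A UMI marks 1 captured transcript by its 3′ end, so CPM was not divided by gene length. With 1 library per culture no test was possible, no difference has a replicate check, and every 95% interval covers counting error only. Of the astrocyte markers, Aqp4 had 0 UMIs in both cultures and Gfap had 30 and 27 UMIs, against 7437 and 16535 UMIs of S100b, 17148 and 5231 UMIs of Slc1a3, and 168 and 350 UMIs of Aldh1l1. Among markers of the oligodendrocyte lineage, not all of which are given here, Olig1 was at 141 and 1292 CPM, Olig2 at 69.8 and 465 CPM, Cspg4 at 16.9 and 34.6 CPM and Mbp at 255 and 124 CPM. The 5 neuron markers summed to 315 and 1222 UMIs, nearly all of them Syt1 (306 and 1202 UMIs), with Snap25 at 0. Markers of blood, vessel and immune cells were near 0, with 111 and 115 UMIs over 6 macrophage genes, of which Tyrobp and C1qa were at 0, 183 and 7 UMIs over 3 haemoglobin genes, 18 and 15 UMIs over 3 T cell genes, and 62 and 210 UMIs over 4 endothelial genes. Median mitochondrial shares were 2.02% and 3.97%. The libraries shared 12 cell barcodes, 9 of them among the kept cells. The part of these differences in the results was not tested.

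Gpx4 was the selenoprotein gene with the highest CPM in adherent cells and, among the 10 genes, had the largest fold change between the cultures. Of the 10 genes, 9 had at least 50 UMIs over both libraries. Of these, Gpx4 was over 2-fold lower in neurosphere cells, 0 were over 2-fold higher, and the other 8 lay within 2-fold. In all, 14654 genes had that many UMIs, and 21.7% of them were over 2-fold higher while 11.7% were over 2-fold lower. Taken over the 9 genes, the median log2 fold change (neurosphere over adherent) was 0.01, against 0.32 over all those genes. Summed over the 10 genes, the adherent level was 4130 CPM and the neurosphere level 3141 CPM, with a log2 fold change of -0.40 (-0.40 to -0.39). Without Gpx4, the sums of the other 9 genes were 2762 and 2801 CPM, a log2 fold change of 0.02 (0.01 to 0.03).

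**Figure D1:**
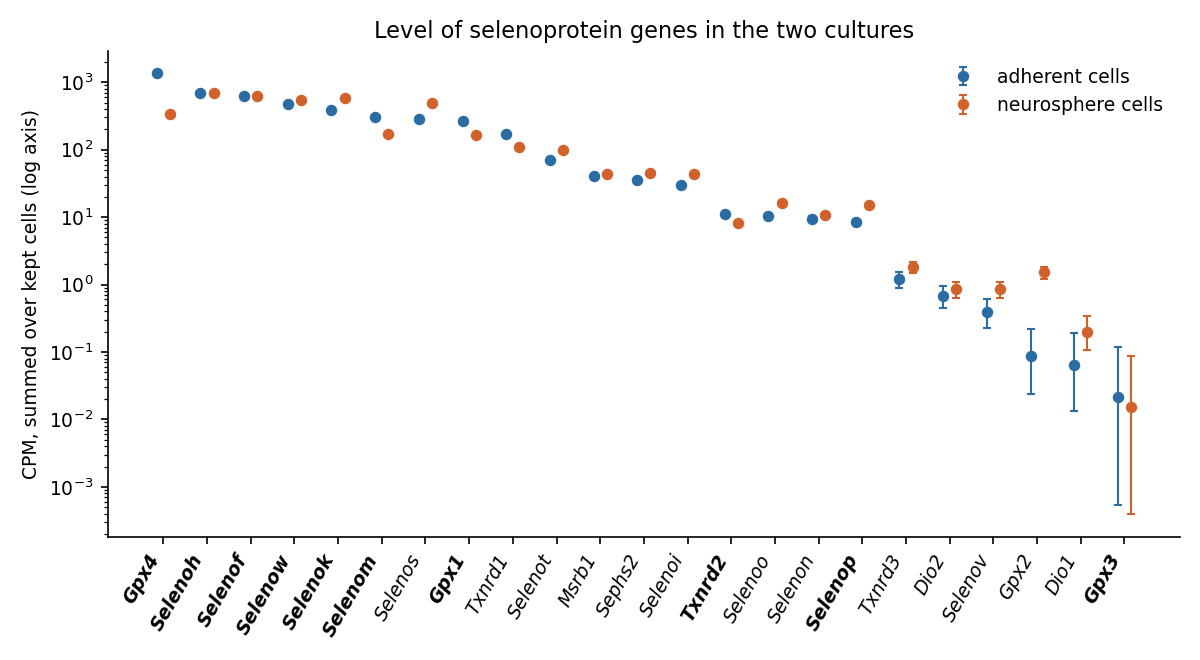
CPM of selenoprotein genes (log axis) in the kept adherent cells (blue) and neurosphere cells (orange), 1 library each, ordered by adherent CPM, with the 10 genes in bold and bars giving 95% Poisson intervals (counting error only). Gpx4 was the top gene in adherent cells at 1368 CPM and 340.1 CPM in neurosphere cells, Gpx3 was at 1 UMI in each, and Dio3, at 0 UMIs in both, is not drawn.

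The glutathione peroxidases reduce peroxides with glutathione. Gpx4 (chr10:80047166-80056439), the member that acts on lipid peroxides within membranes and thereby restrains ferroptosis, had 63325 UMIs in adherent and 22086 UMIs in neurosphere cells. Its level was 1368 CPM (1357 to 1379) and 340.1 CPM (336 to 345), so the neurosphere level was 4.02-fold lower, with a log2 fold change of -2.01 (-2.03 to -1.99). By CPM, it ranked 87 among all genes in adherent cells and 510 in neurosphere cells. Gpx1 (chr9:108338903-108340343), the cytosolic enzyme that reduces hydrogen peroxide, was at 269 CPM (264 to 273) and 164 CPM (161 to 167), a log2 fold change of -0.71 (-0.75 to -0.68). Both were thus lower in neurosphere cells, Gpx4 by the larger factor. Gpx3, the secreted glutathione peroxidase of plasma, had 1 UMI in each culture, too few for a fold. Of the other selenoprotein peroxidases, Gpx2, known from gut epithelium, had 4 adherent and 98 neurosphere UMIs, a log2 fold change of 4.13 (2.72 to 6.03), with 21 of the 98 UMIs in 1 cell. With 1 CPM added to both cultures it was at 1.21, and without cells over the 95th percentile of UMIs at 5.02.

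The thioredoxin reductases return thioredoxin to its reduced form. Txnrd2 (chr16:18426384-18479073), the mitochondrial enzyme, had 512 and 527 UMIs, or 11.1 CPM (10.1 to 12.1) and 8.11 CPM (7.44 to 8.84), a log2 fold change of -0.45 (-0.63 to -0.27). The cytosolic Txnrd1 was at 173 and 109 CPM, a log2 fold change of -0.67 (-0.71 to -0.62). Txnrd3, known from testis, had 55 and 117 UMIs and a log2 fold change of 0.60 (0.13 to 1.09), which was 0.09 after each cell was thinned to 5000 UMIs.

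Selenow (chr7:15917208-15922402) and Selenoh (chr2:84669215-84670770) encode small thioredoxin-fold proteins, the latter found in the nucleolus. Selenow was at 479 CPM (472 to 485) and 542 CPM (537 to 548), a log2 fold change of 0.18 (0.16 to 0.20), which turned to -0.04 with TMM scaling. Selenoh was at 689 CPM (681 to 696) and 694 CPM (688 to 701), a log2 fold change of 0.01 (-0.01 to 0.03). Of the 3 mRNAs known to be lost when selenium is scarce (Gpx1, Selenow and Selenoh), 0 of 3 were over 2-fold apart, against 21.7% higher and 11.7% lower over all genes, and their summed level was 1436 and 1400.2 CPM. Within that sum Gpx1 was lower, at -0.71 on the log2 scale. Of those known to be kept, Gpx4 was over 2-fold lower and Txnrd1 lay within 2-fold, and their sum, most of it Gpx4, was 1541 and 449 CPM. Txnrd1, at -0.67, was close to Gpx1 of the first group.

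Selenom, Selenof and Selenok belong to the endoplasmic reticulum (ER). Selenom (chr11:3514684-3517351), a soluble ER thioredoxin-like protein, was at 301 CPM (296 to 307) and 169.8 CPM (167 to 173), 1.78-fold lower in the spheres, a log2 fold change of -0.83 (-0.86 to -0.79). Selenof (chr3:144570304-144597680), which binds the glycoprotein folding sensor UGGT, was at 619 CPM (612 to 626) and 626 CPM (620 to 632), a log2 fold change of 0.02 (-0.01 to 0.04). Selenok (chr14:29968308-29975662), a membrane protein that works with Zdhhc6 in palmitoylation and with the degradation machinery of the ER, was at 386 CPM (381 to 392) and 581 CPM (576 to 587), 1.5-fold higher, a log2 fold change of 0.59 (0.56 to 0.61). Selenom and Selenok thus differed in opposite directions, while the interval of Selenof included 0. The pseudogene Selenok-ps1, counted on its own, had 5 and 31 UMIs. Selenos, the other selenoprotein of ER-associated degradation, was at 289.5 and 499 CPM, a log2 fold change of 0.78 (0.76 to 0.81).

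Selenop (chr15:3268547-3280508), the secreted protein that carries selenium between tissues, was the least abundant of the 10 genes after Gpx3 in adherent cells, while in neurosphere cells Txnrd2 was lower. It had 397 adherent and 996 neurosphere UMIs, or 8.58 CPM (7.75 to 9.46) and 15.3 CPM (14.4 to 16.3), a log2 fold change of 0.84 (0.67 to 1.01). The value passed 2-fold, at 1.26, after each cell was thinned to 5000 UMIs, at 1.12 as a mean over cells of CPM and at 1.06 with mitochondrial and ribosomal genes in the total. Its gene overlaps Ccdc152 on the other strand.

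**Figure D2:**
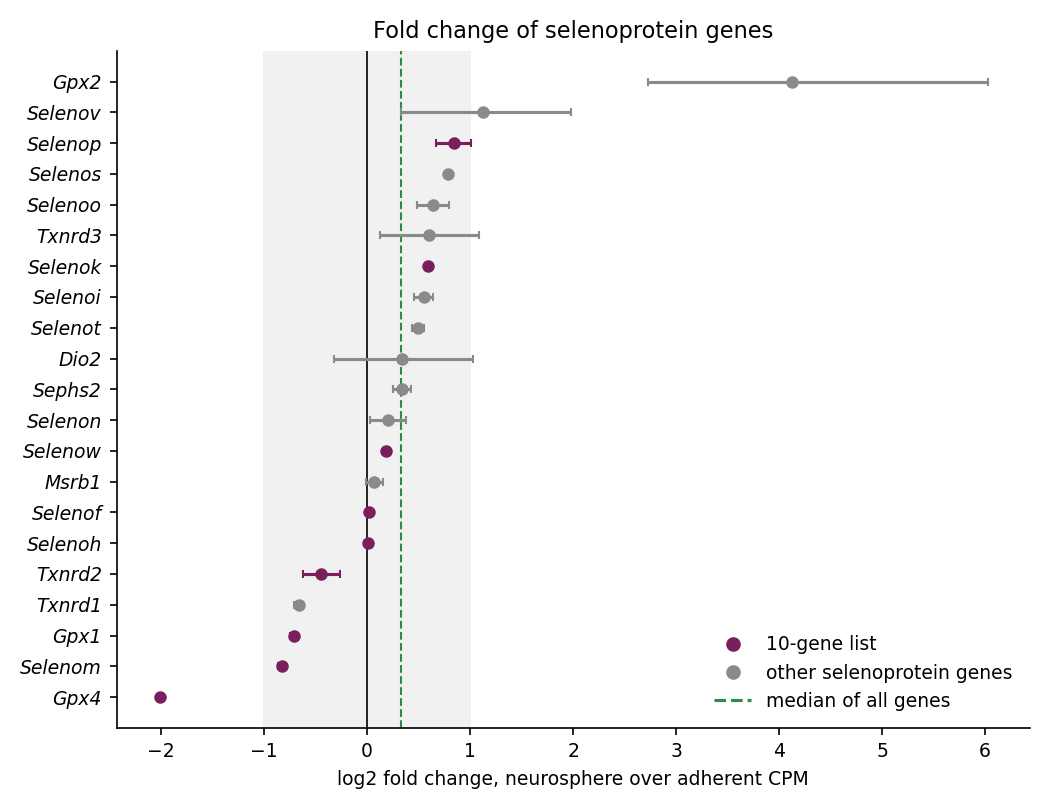
Log2 fold change of CPM, neurosphere over adherent cells, for the 21 selenoprotein genes with at least 50 UMIs, with 95% intervals (counting error only), 1 library per culture. The 10-gene list is in purple, the grey band marks 2-fold in both directions and the dashed line the median of all genes (0.32). Gpx4 at -2.01 lies alone below the band, while Gpx2 at 4.13 and Selenov at 1.12 lie above it. Selenow, Selenon, Selenof, Selenoh and Msrb1, all between 0 and 0.32, were below 0 with TMM scaling.

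Of all 24 selenoprotein genes, 21 had at least 50 UMIs over both libraries, of which 2 (Gpx2 and Selenov, known from testis) were over 2-fold higher in neurosphere cells, 1 (Gpx4) was over 2-fold lower and 18 lay within 2-fold, against 21.7% and 11.7% of all genes. Their median log2 fold change was 0.34, close to the 0.32 of all genes. Selenov had 18 and 55 UMIs and a log2 fold change of 1.12 (0.33 to 1.98), which was 0.91 with TMM scaling and 0.41 with 1 CPM added to both. The remaining genes within 2-fold were Selenoo at 0.64, Selenoi at 0.55, Selenot at 0.49, Sephs2 at 0.34, Dio2 at 0.34, Selenon at 0.21 and Msrb1 at 0.07 on the log2 scale. Selenoi makes ethanolamine phospholipids, Selenot is an ER thioredoxin-like protein, Sephs2 makes the selenium donor, Selenon acts in muscle calcium handling, Selenoo is mitochondrial and Msrb1 repairs oxidized methionine. Of the deiodinases, which activate or inactivate thyroid hormone, Dio2 had 31 and 55 UMIs, Dio1 had 3 and 13 UMIs, and Dio3 had 0 UMIs in both.

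Selenoprotein genes took 0.479% of all UMIs in adherent and 0.401% in neurosphere cells. Gpx4 made up 28.5% of these UMIs in adherent cells (28.4% to 28.7%) and 8.48% in neurosphere cells (8.37% to 8.59%). In neurosphere cells the leading genes were Selenoh with 17.3%, Selenof with 15.6%, Selenok with 14.5%, Selenow with 13.5% and Selenos with 12.4%, against 14.4%, 12.9%, 8.07%, 9.99% and 6.04% in adherent cells. When each UMI was weighted by the number of selenocysteine codons of its gene, Gpx4 took 28.1% of the codons in adherent and 8.20% in neurosphere cells. Selenop, with its 10 codons, then took 1.76% and 3.70%, although it made up only 0.179% and 0.382% of the selenoprotein UMIs.

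The difference in Gpx4 was seen across the cells and was not made by a few of them. To set both cultures at 1 depth, each kept cell was thinned at random to 5000 UMIs, which left 4464 adherent and 4196 neurosphere cells, while 587 and 80 cells were too shallow. The median thinned cell had 6 UMIs of Gpx4 in adherent and 1 UMI in neurosphere cells, with quartiles of 4 and 9 against 1 and 2 UMIs. Of the adherent cells 70.3% had at least 5 UMIs, and of the neurosphere cells 5.96%, and 96.5% of the neurosphere cells lay below the adherent median. Cells with a UMI of Gpx4 made up 99.0% (98.7% to 99.3%) of thinned adherent cells and 76.0% (74.7% to 77.3%) of thinned neurosphere cells. Before thinning, the shares were 99.2% and 93.7%. The distributions of UMIs per thinned cell in the cultures overlapped by 31.0%, against 76.5% to 98.5% for the other 8 genes with at least 50 UMIs. This overlap depends on the number of UMIs per cell, and Gpx4 had the highest mean in adherent cells, 6.93 UMIs. Selenop overlapped by 96.7%, with 96.2% and 92.9% of cells at 0 UMIs, although its log2 fold change after thinning was 1.26. The overlaps therefore do not rank the genes by their difference.

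**Figure D3:**
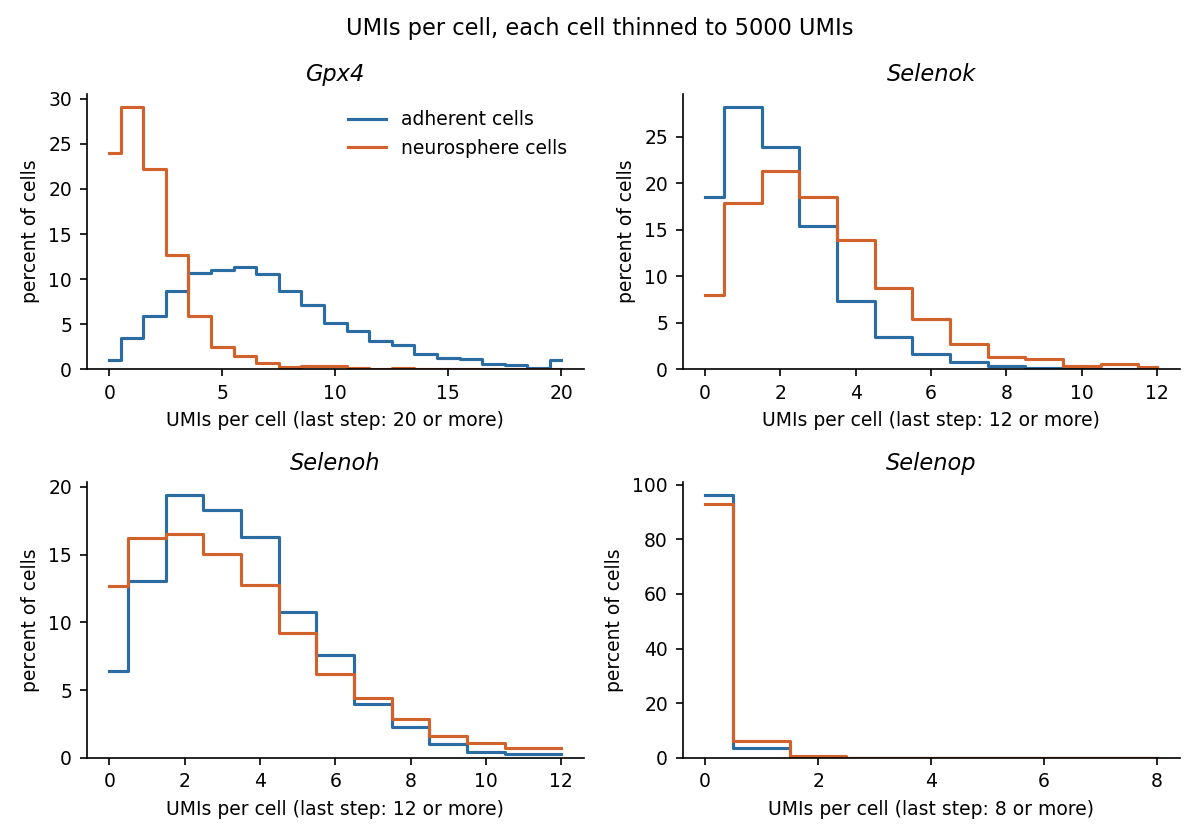
Share of cells (percent) by the number of UMIs of Gpx4, Selenok, Selenoh and Selenop per cell, after each cell was thinned to 5000 UMIs, for 4464 adherent cells (blue) and 4196 neurosphere cells (orange). For Gpx4 the cultures overlapped by 31.0%, with medians of 6 and 1 UMIs, while most cells of both cultures had 0 UMIs of Selenop.

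Gpx1 was found in 70.1% (68.7% to 71.4%) of thinned adherent and 52.1% (50.5% to 53.6%) of thinned neurosphere cells, against 83.3% and 81.2% without thinning. Selenom had like shares, 74.4% (73.1% to 75.7%) and 55.0% (53.5% to 56.5%), or 85.7% and 82.9% without thinning. For Selenok the share was higher in neurosphere cells, at 81.5% (80.3% to 82.6%) and 92.0% (91.2% to 92.8%), or 90.2% and 99.1% without thinning. Selenow was found in 87.8% and 90.7%, and Selenof in 94.5% and 93.8% of thinned cells, or in 94.4% and 98.9%, and in 97.2% and 99.3%, without thinning. Txnrd2 was found in 5.29% (4.65% to 5.98%) and 3.74% (3.19% to 4.36%) of thinned cells, or in 9.54% and 11.2% without thinning. Gpx3 was found in 1 cell of each culture. With a single cell line in both libraries, the share that free RNA gives in cells without expression could not be measured.

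The variance of a gene's UMIs over their mean is near 1 for counts that vary only by sampling. In thinned neurosphere cells it was 2.52 for Selenop, 2.07 for Selenoh and 1.88 for Gpx4, and between 1.02 and 1.58 for the other 6 genes with at least 50 UMIs. In adherent cells it was 2.66 for Gpx4 and between 0.996 and 1.43 for the other 8. For the same relative spread this ratio rises with the mean. Gpx4 had a mean of 6.93 UMIs in adherent and 1.76 UMIs in neurosphere cells, so its ratios do not rank the cultures by spread. Selenoh had a mean of 3.37 and 3.25 UMIs per thinned cell, with a variance over mean of 1.37 in adherent cells. Thinned cells without a UMI of Selenoh made up 6.38% in adherent and 12.7% in neurosphere cells, and those with a UMI were 96.0% and 94.0% without thinning. Selenop was found in 3.81% (3.27% to 4.41%) of thinned adherent and 7.08% (6.32% to 7.90%) of thinned neurosphere cells, or in 6.97% and 15.3% without thinning. Without thinning, 20 neurosphere cells had at least 5 UMIs of Selenop and held 199 of its 996 UMIs, and the highest had 25 UMIs, while no adherent cell had more than 3. Between pairs of the genes, Pearson correlations of log-scaled UMIs over thinned cells ran from -0.060 to 0.105 in adherent and from -0.111 to 0.119 in neurosphere cells over 36 pairs and were thus weak at these counts.

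The cells of each library were clustered on their own with the selenoprotein genes left out of the variable genes, which gave 9 adherent and 10 neurosphere clusters of at least 50 cells. Clusters are given by number and leading genes, and their values are a description. Gpx4 was at 748 to 1634 CPM over adherent clusters and at 266 to 736 CPM over neurosphere clusters, so each of these 9 adherent clusters lay above each neurosphere cluster, although the lowest adherent and the highest neurosphere level had overlapping intervals. Adherent cluster 9, left out with 48 cells, a median of 2623.5 UMIs per cell and a median mitochondrial share of 12.3%, was at 416.5 CPM of Gpx4 (314 to 542) and 68.2 CPM of Gpx1 (31.2 to 129), within or below the neurosphere range. The lowest adherent cluster was cluster 8 (231 cells, led by Egflam, Ly6a and Cd81, with Ptprz1 and Olig2 among its top genes) at 748 CPM (712 to 786), while the next was at 1188 CPM. The highest neurosphere clusters were cluster 9 (74 cells, led by Ccl2, Cox6a2 and Nupr1, with the stress genes Ddit3 and Gdf15) at 736 CPM (680 to 796) and cluster 5 (440 cells, led by Chit1, Nppb and Spp1, with the interferon-induced Ifit3 and Cxcl10) at 576 CPM (557 to 596). The other 8 neurosphere clusters were at or below 401.5 CPM. Gpx1 also did not overlap over clusters of at least 50 cells, although narrowly, with 236.5 to 327 CPM over adherent and 128 to 236 CPM over neurosphere clusters. For the other 7 genes with at least 50 UMIs the ranges overlapped. Of all 14654 genes, 6.2% had every adherent cluster above every neurosphere cluster and 16.5% the reverse.

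**Figure D4:**
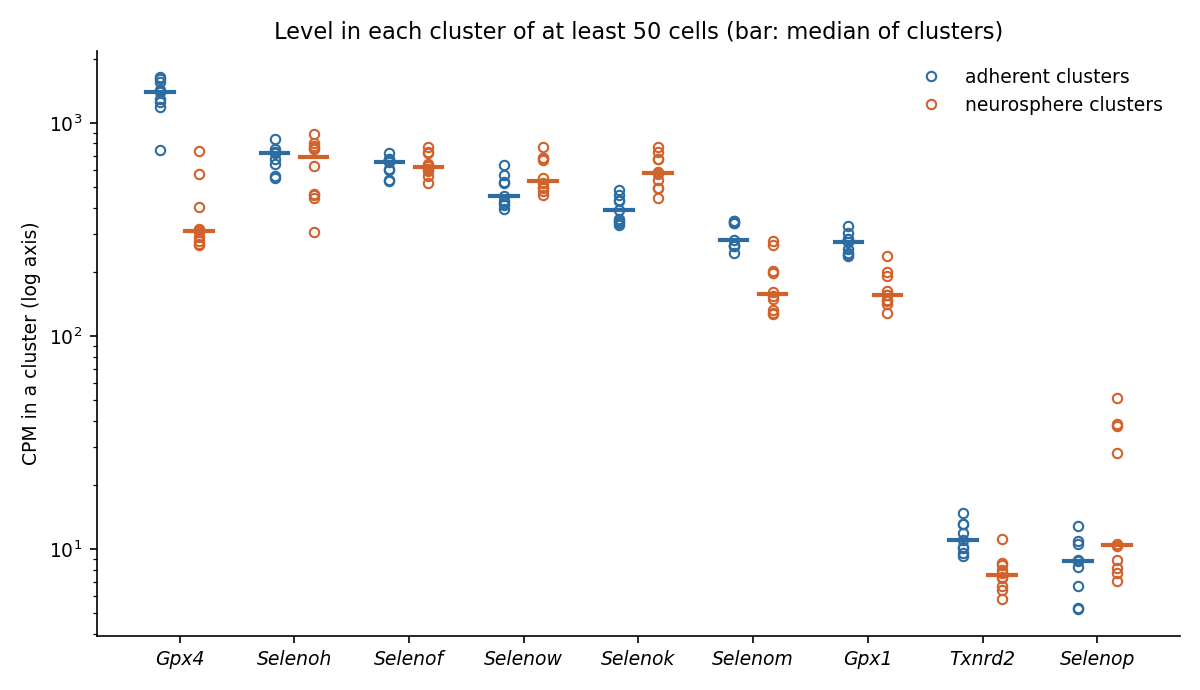
CPM (log axis) of 9 of the genes in each cluster of at least 50 cells, 9 adherent clusters (blue) and 10 neurosphere clusters (orange), with bars at the median of the clusters; Gpx3, at 1 UMI per culture, is not drawn. Gpx4 and Gpx1 did not overlap between these clusters, though an undrawn adherent cluster of 48 cells was at 416.5 and 68.2 CPM, and Selenop spanned 7.10 to 51.2 CPM over neurosphere clusters.

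Selenop had the widest range of the 10 genes, from 7.10 CPM (cluster 3) to 51.2 CPM (cluster 9) in neurosphere cells, against 5.22 to 12.8 CPM in adherent cells. Besides cluster 9, its highest levels were in cluster 5 with 38.6 CPM (34 to 44), cluster 1 (585 cells, led by Comp, Pdzd2 and Mucl2) with 37.9 CPM (33 to 44), and cluster 6 (391 cells, led by Mbp and Enpp2, with Gpr17) with 28.3 CPM (23 to 34). In the other 6 neurosphere clusters it was at or below 10.5 CPM, which lies within the adherent range. Selenoh ran the other way. It was lowest in cluster 1 with 309 CPM (294 to 325), followed by cluster 6 with 444 CPM, cluster 5 with 456 CPM and cluster 9 with 461.5 CPM, and highest in cluster 4 (475 cells, led by the mitotic genes Cdc20, Ube2c and Ccnb1) with 887 CPM (868 to 906). Selenom was highest in cluster 1 with 279 CPM and lowest in cluster 7 (358 cells, led by the S-phase genes Hist1h1b, Rrm2 and Neil3) with 127 CPM. Selenok was highest in cluster 6 with 766 CPM and also lowest in cluster 7 with 446 CPM. Selenow was highest in cluster 9 with 766 CPM, and Selenof ran from 524 CPM in cluster 3 to 772 CPM in cluster 6. Txnrd2 was between 5.81 and 14.7 CPM in every cluster. Over the 19 clusters, with each culture centred, the log2 levels correlated most between Selenow and Selenop (r = 0.78) and Selenom and Selenok (r = 0.78), and least between Selenop and Selenoh (r = -0.82). The points share 2 libraries.

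Likeness to other genes was measured for the 3 of the 10 genes with the widest range over clusters, as the Pearson correlation of log2(CPM + 1), centred within each culture, over the same 19 clusters and 7598 genes. The genes most like Gpx4 were Fth1 (r = 0.96), the heavy chain of ferritin, Card19 (r = 0.91) and Ier3 (r = 0.90). For Selenop they were Tapbp (r = 0.90), which loads peptides on MHC class I, Hps4 (r = 0.90) and the lysosomal fucosidase Fuca1 (r = 0.90). For Selenoh they were the mRNA decapping scavenger Dcps (r = 0.96), Lsm5 (r = 0.95) and Tmem97 (r = 0.94).

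Levels were also compared between cells with few and many UMIs of cell cycle genes. Thinned cells were split by their UMIs of 10 G2/M genes into a low class with 0 or 1 UMI (448 adherent and 1454 neurosphere cells) and an upper class with at least 22 UMIs in adherent and 18 UMIs in neurosphere cells (939 and 860 cells). Selenoh was at 510.3 CPM in the low class of adherent cells and at 733 CPM in the upper class, a log2 ratio of 0.52 (0.43 to 0.62). In neurosphere cells it was at 431 and 828 CPM, a log2 ratio of 0.94 (0.87 to 1.01). Selenop was at 36.9 CPM (32.6 to 41.6) in the low class of neurosphere cells and at 10.2 CPM (7.4 to 13.7) in the upper class, a log2 ratio of -1.85 (-2.34 to -1.38). In adherent cells it was at 10.7 and 7.0 CPM, a log2 ratio of -0.61 with an interval that includes 0 (-1.41 to 0.21). Selenom had log2 ratios of -0.14 and -0.76, Selenok of -0.28 and -0.49, Selenow of -0.13 and -0.48, and Selenof of -0.18 and -0.35 in adherent and neurosphere cells. Gpx4, with -0.27 in both, and Gpx1, with -0.20 and -0.22, had overlapping intervals in the cultures, while Txnrd2, with 26 to 48 UMIs per class, had -0.21 (-0.93 to 0.54) and 0.66 (0.04 to 1.28).

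**Figure D5:**
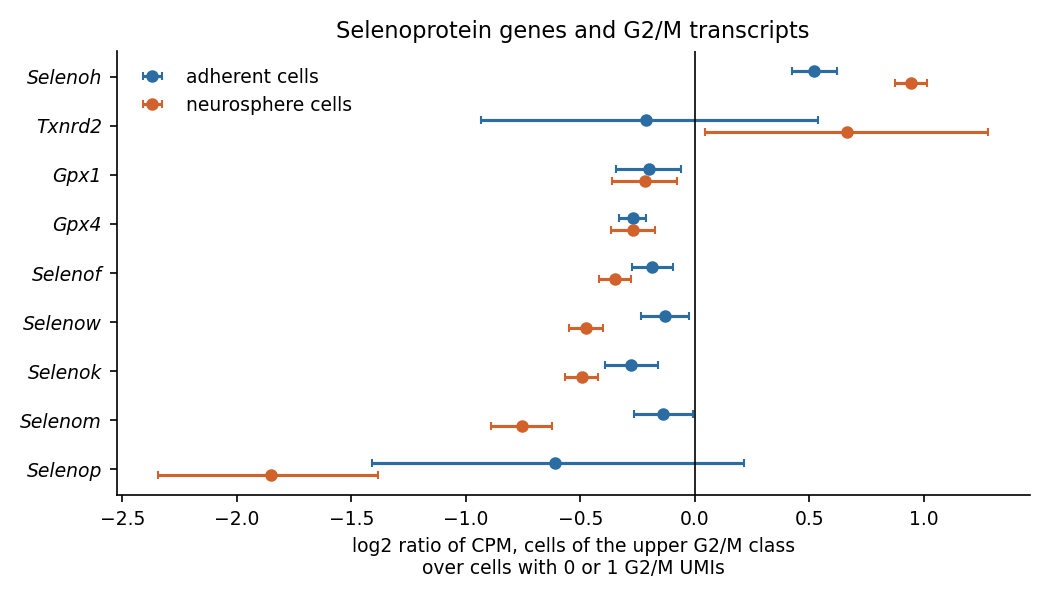
Log2 ratio of CPM between thinned cells of the upper G2/M class (at least 22 adherent or 18 neurosphere UMIs) and thinned cells of the low class (0 or 1 UMI), for 9 of the genes in adherent (blue) and neurosphere (orange) cells, with 95% intervals (counting error only). Selenoh was the only gene above 0 in both cultures, at 0.52 and 0.94, and Selenop had the lowest ratio, -1.85 in neurosphere cells.

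The difference between the cultures was also taken within these classes. For Gpx4 the log2 fold change (neurosphere over adherent) was -2.14 in the low class and -2.14 in the upper class, and for Gpx1 it was -0.79 and -0.81. The Gpx4 difference was thus as large within a class as over all cells. For Selenop it was 1.78 (1.18 to 2.45) in the low class and 0.54 (-0.14 to 1.24) in the upper class. For Selenoh it was -0.24 and 0.18, for Selenom -0.41 and -1.03, for Selenow 0.43 and 0.08, and for Selenok 0.71 and 0.49. Selenof was at 0.01 and -0.16, and Txnrd2 at -0.81 (-1.53 to -0.07) and 0.06 (-0.56 to 0.69). Among clusters, the summed G2/M genes were lowest in neurosphere clusters 1, 6 and 5 (100.1, 220.1 and 292 CPM), which were among the 4 clusters highest in Selenop. Next came neurosphere cluster 2 (506 CPM), where Selenop was at 10.3 CPM, and adherent clusters 4 and 2 (571 and 689 CPM). The part of these clusters in the Selenop difference was not tested.

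Barcodes that the filter left out, from the same 2 libraries, showed the Gpx4 difference too. Gpx4 was at 1186 CPM (1081 to 1299) in 713 adherent and 339 CPM (293 to 390) in 675 neurosphere barcodes. The totals behind these levels were only 392008 and 574706 UMIs, and the share of free RNA in them was not measured. Gpx1 was at 128 CPM (94.7 to 168) and 153 CPM (123 to 189) there, with overlapping intervals. Its lower neurosphere level was thus not seen in these barcodes, and its adherent level was below that of the kept cells, 269 CPM.

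Of 13 genes that make and supply selenocysteine, 12 had at least 50 UMIs, of which 1 was over 2-fold higher, 1 over 2-fold lower and 10 within 2-fold, with a median log2 fold change of 0.22. Over all genes, 21.7% were higher and 11.7% lower by that much, with a median of 0.32. The higher one was Scly, the lyase that recovers selenium from selenocysteine, at 14.7 and 43.7 CPM, a log2 fold change of 1.57 (1.45 to 1.69). Next was Secisbp2, which binds the SECIS element, at 0.89. The lower one was Sars, which charges the selenocysteine tRNA with serine and also serves all serine codons, at 307 and 137 CPM, a log2 fold change of -1.16 (-1.20 to -1.13). It was followed by Sephs1, a relative of the selenophosphate synthetase, at -0.35.

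Among 21 peroxide and thiol redox genes without selenocysteine, 19 had at least 50 UMIs, with 2 over 2-fold higher, 0 over 2-fold lower and a median of -0.31, against 21.7%, 11.7% and 0.32 over all genes. The higher ones were Nxn (nucleoredoxin) at 1.30 and Msrb2, a mitochondrial methionine sulfoxide reductase, at 1.11. The lowest were the peroxiredoxin Prdx2, at 919 and 500.4 CPM with a log2 fold change of -0.88, and Msrb3 at -0.85.

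Genes of lipid peroxidation, iron and glutathione, the setting in which Gpx4 acts, numbered 16, of which 15 had at least 50 UMIs, with 2 over 2-fold higher, 5 over 2-fold lower and a median of -0.21, beside 21.7%, 11.7% and 0.32 over all genes. The lowest were Slc7a11, the cystine importer that feeds glutathione synthesis, at 28.3 and 5.54 CPM with a log2 fold change of -2.35 (-2.52 to -2.18), and Fth1, at 4420 and 1377 CPM with -1.68 (-1.69 to -1.67). The other 3 were Gch1 at -1.50, Hmox1 at -1.18 and Gss at -1.13, which act in tetrahydrobiopterin synthesis, haem breakdown and glutathione synthesis. The higher ones were Ncoa4, the receptor for ferritin breakdown, at 1.42, and Tfrc, the transferrin receptor, at 1.10. As this list and its members were chosen with earlier results known, the counts are a description.

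Of 13 ER folding and degradation partners, 12 had at least 50 UMIs and 0 were over 2-fold apart, with a median of 0.17, beside the same 21.7%, 11.7% and 0.32. Zdhhc6, the partner of Selenok, was highest at 0.95 (25.2 and 48.7 CPM), followed by the disulfide isomerase Pdia3 at 0.62, and the lowest were Derl1 at -0.22 and the chaperone Hspa5 at -0.21.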

How the data were processed

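The authors deposited, for each of 2 libraries (10x Genomics 3′ v3), raw UMI counts per gene and called cell from Cell Ranger 7.0.1 on mm10, as the submitters' processing notes name them, without normalization. The annotation release and the handling of intronic reads are not given in the sources used here. The libraries held 68531063 (adherent, 5764 cells) and 82832873 UMIs (neurosphere, 4951 cells). In the order of the study's Methods, 13 mitochondrial and 101 ribosomal genes were removed, then cells under 1000 UMIs or under 1250 (adherent) or 2250 (neurosphere) genes. This left 5051 and 4276 cells. Filtering cells before removing genes, run as an alternative, left 5073 and 4300 cells, and these are the cell numbers of the study. The kept cells held 46290996 and 64943938 UMIs. No doublets were removed. Cells over the 95th percentile of UMIs were left out as an alternative.

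Counts were summed per library and divided by the total to give CPM, with exact Poisson, conditional (log2 fold change) and binomial (share) 95% intervals. With 1 library per culture no test was run, and cells were not treated as replicates. The script was tested on simulated data. Clusters came from Seurat 5.3.0 under R 4.3.3 (2000 variable genes, 17 and 18 PCs, resolution 1.0), TMM factors from edgeR 4.0.16, and the rest from matplotlib 3.10.9, pandas 2.3.3, scipy 1.17.1 and numpy 2.4.6 (Python 3.11.15). Gene positions and sequences are from GENCODE M21 on GRCm38, in which 32158 of the 32285 gene identifiers were found.

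The 10 genes, the gene lists and the alternatives were chosen with earlier results of these data known. Named were all 24 selenoprotein genes and, of each other list, the 2 highest and 2 lowest log2 fold changes among genes with a summed count over both libraries of at least 100 UMIs. Further names were the genes over 2-fold apart, the markers, and the 3 genes most like each of the 3 of the 10 genes with the widest range over clusters, sought among genes with at least 500 UMIs in each culture. Some items that fall under this rule are not reported here.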

Additional observations from a re-analysis of the deposited data

How the results depend on the processing

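No paired analysis was possible because each culture has 1 library. Over 11 alternatives, Gpx4 was between -2.22 (TMM) and -1.79 (total with the mitochondrial and ribosomal genes) on the log2 scale and Gpx1 between -0.93 and -0.50. These scalings moved the median of all genes by -0.22 and 0.22. With TMM, Selenow (-0.037), Selenon (-0.011), Selenof (-0.20), Selenoh (-0.20) and Msrb1 (-0.15) were below 0, Selenom reached -1.05, 1 selenoprotein gene was over 2-fold higher and 2 were over 2-fold lower, against 2 and 1. The higher count was 4 with mitochondrial and ribosomal genes kept, 1 with 1 CPM added to both, 1 with a minimum of 100 UMIs, and 3 as a mean over cells, after thinning (Selenop added in both) and with no minimum. Of 14654 genes, 3181 were over 2-fold higher and 1711 over 2-fold lower in the main setting. With TMM they were 2354 and 2128, with the kept genes 4325 and 1375, and with 1 CPM added 2257 and 1222. As a mean over cells they were 3167 and 1755, and after thinning 3506 and 1719. With a minimum of 100 UMIs they were 2825 and 1407 of 13335 genes, and with no minimum 5491 and 4842 of 23649 genes. The median of the 9 genes with at least 50 UMIs (0.012) was -0.20 with TMM, 0.23 with the kept genes, -0.018 without cells over the 95th percentile of UMIs, -0.047 as a mean over cells and -0.050 after thinning. The log2 fold change of the sum of the 10 genes (-0.40) was -0.61 with TMM, -0.18 with the kept genes, -0.31 with the length trend removed, -0.38 as a mean over cells, -0.37 after thinning and -0.39 with the neurosphere limit on genes per cell in both libraries. Txnrd2 was at 0.064 in the upper G2/M class, a split chosen after seeing the data. At a clustering resolution of 0.8, the log2 range over neurosphere clusters was 1.16 against 1.47 for Gpx4 and 0.57 against 0.74 for Selenow. The causes were not tested. Depth limits Gpx3, Dio1, Dio3, Gpx2 and Selenov, and without the 1 cell with 21 UMIs, also left out after seeing the data, Gpx2 was at 3.78.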
